A study of Tupaia belangeri with 2 samples.

Results

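The genes described here build the mitotic spindle and the kinetochore or drive cells through G2 and mitosis. They were taken by name from the tree shrew annotation: names that begin with CENP, BUB, AURK, NDC80, NUF2, SPC24, SPC25, CCNA2, CCNB, PLK1 or PLK4, and further names given in full, among them MKI67, TOP2A, ASPM, TPX2 and CDK1. The annotation held 52 such names, and 49 kept at least 20 unique molecular identifiers (UMIs, each marking 1 captured transcript) over both libraries. These are 49 of 18543 names in all, of which 11961 reached 20 UMIs. CCNB1IP1 lay just outside the limit with 18 UMIs, CENPU held 1 and CENPK held 0, whereas the members just inside it were CENPM with 60 UMIs and CENPA with 112.

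Chromosome segregation is run by the mitotic spindle and the kinetochores. The inner kinetochore is a protein platform on centromeric chromatin, and the outer kinetochore binds spindle microtubules to it. Checkpoint kinases hold the cell in mitosis until every chromosome is attached, and cyclin-dependent kinase 1 with its A and B cyclins starts mitosis and ends it when the cyclins are destroyed. In the embryonic brain these genes mark progenitors of the ventricular and subventricular zones, since neurons do not divide. ASPM and CENPJ are known for mutations that cause a small brain in humans.

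The data are single-cell transcriptomes of whole brains from 2 tree shrew (Tupaia belangeri) embryos aged 4 to 5 postconceptional weeks, with 1 droplet library per embryo, no treatment, and no second condition. The dura mater and blood vessels were taken off before the tissue was dissociated. Embryos 1 and 2 gave 41868023 and 38077767 UMIs in 9241 and 9685 barcodes, and cells with at least 200 genes numbered 8408 and 9327. The libraries shared 18 barcodes, and a chi-square of 243 per degree of freedom over 12753 genes showed that neither is a copy of the other. In the cells with at least 200 genes, haemoglobin made up 22.5% of the UMIs in embryo 1 and 8.38% in embryo 2. With 1 library per embryo and the embryo as a block, p-values measure only how differences between cell classes varied between these 2 animals.

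The cells formed 18 clusters, found without the members, without other mitotic and DNA replication genes and without histones. A class is named here by markers and written "-like". Dividing cell-like clusters were named from DNA replication genes alone, none of them a member, and they held 2304 cells, 1221 of embryo 1 (14.5% of its cells) and 1083 of embryo 2 (11.6%). Genes that go with division and stood on no list could still shape the clusters, and SPC25, NDC80, UBE2T, PRC1, AURKB and MKI67 stood among the 10 leading genes of 1 dividing cell-like cluster and AURKB and CCNA2 among those of the other. The same cells gave both the classes and the levels. By the cell cycle marks described further below, 76.0% of dividing cell-like cells were G2/M-marked and 2.69% S-marked. The other cells of the class were doubly marked, with UMIs of both lists and neither mark. By these marks the class is mainly one of G2/M-marked cells. The marks compare raw UMIs of lists of unequal depth, 220062 UMIs of mitotic and 87359 of replication genes. The shares are therefore not read as shares of the phases. Radial glia line the ventricles and act as neural stem cells. Of the 1904 cells called radial glia-like, 1476 formed cluster 5, which took the name from VIM, NES and PTN alone, the minimum of 3 markers, and had no radial glia marker among its 10 leading genes (CDKN1C, a cell cycle inhibitor, and the Notch ligands JAG1 and DLL3 were among them). The other 428 formed cluster 11, named from 7 markers. There were 6 neuron-like classes, and 1 of them, of 180 cells named from general neuronal markers, had a median of only 724 UMIs per cell. Cluster 2 (1751 cells) had 8 markers of radial glia, PAX6, SLC1A3 and SOX9 among them, and 8 of replication and was left unnamed, so that a part of the cells with radial glia markers stands outside the class of that name, as was cluster 12 (402 cells), where the markers found were the embryonic globins HBE1 and HBZ. No cluster took the name of oligodendrocyte progenitors, astrocytes, pericytes or ependymal cells.

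The level of a gene is given as UMIs per 1000000 UMIs of a class (CPM), in embryos 1 and 2 in that order. A level does not tell apart more cells with the transcript and more transcript per cell. Levels of different genes are not compared, since counts per transcript depend on how well its 3′ end is captured and annotated.

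The 49 members together made up 28496 and 26872 CPM of the dividing cell-like class, a mean of 27684 ± 1149 CPM (SD, n = 2). Radial glia-like cells held 4184 and 4032 CPM, and unnamed cluster 2 held 3769 and 3311 CPM. The 6 neuron-like classes lay between 1551 CPM in granule neuron-like cells of embryo 2 and 2306 CPM in nascent inhibitory neuron-like cells of embryo 1. Thus every dividing cell-like value stood above every value of the other classes, radial glia-like values stood above all neuron-like ones, and the neuron-like classes overlapped one another. Neuron-like cells together held 1830 and 1770 CPM. Of this CENPV gave 299 and 420, BUB3 193 and 199, CENPH 189 and 199, and AURKAIP1 191 and 183. In dividing cell-like cells these genes held 377 and 554, 406 and 360, 192 and 212, and 180 and 193 CPM. BUB3 was 2.10-fold and 1.81-fold higher in dividing cell-like cells, whereas CENPV, CENPH and AURKAIP1 were nearly even. The neuron-like sums thus rest in good part on genes that neuron-like cells hold widely, and are not read as a level of mitosis. Endothelial cell-like cells held 3458 and 4538 CPM, choroid plexus-like cells (162) 5155 and 3196 CPM and microglia-like cells (157) 4776 and 2245 CPM, so that these 3 classes and radial glia-like cells overlapped and could not be ranked. Meningeal fibroblast-like cells held 3088 and 2944 CPM. Erythroid cell-like cells were lowest at 476 and 318 CPM, but 87.6% of their UMIs were haemoglobin, and with haemoglobin left out of the total they held 3853 and 2547 CPM.

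**Figure D1:**
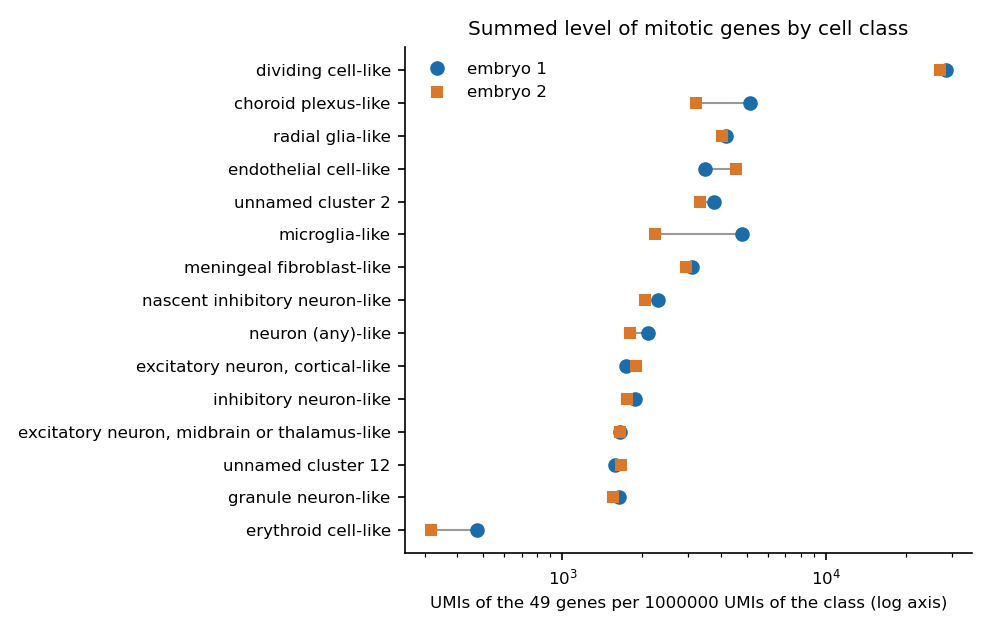
Summed level of the 49 mitotic genes in each cell class, as UMIs per 1000000 UMIs of the class on a log axis. Circles are embryo 1, squares embryo 2, and the grey line joins them. The dividing cell-like class stands apart at 28496 and 26872, and radial glia-like cells hold 4184 and 4032. The sums include CENPV, CENPH and AURKAIP1, which are nearly even across the neural classes. They also include BUB3, which is 2.10-fold and 1.81-fold higher in dividing cell-like than in neuron-like cells.

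How widely the transcripts were spread over cells was read after each cell was thinned to 2000 UMIs, with shallower cells left out. A UMI of MKI67, the Ki-67 protein that coats mitotic chromosomes, was found in 96.8% and 95.9% of the 1166 and 1046 dividing cell-like cells kept, against 98.7% and 98.5% before thinning. The shares were 22.3% and 18.6% in radial glia-like cells, 8.15% and 5.54% in neuron-like cells and 5.97% and 3.90% in erythroid cell-like cells. Before thinning these were 32.2% and 25.6%, 11.1% and 7.50%, and 18.4% and 15.3%, at median depths of 3781 and 3766, 2893 and 2683, and 12452 and 14292 UMIs. Nearly every dividing cell-like cell thus held MKI67, and radial glia-like shares lay above neuron-like ones in each embryo. Since 87.6% of erythroid UMIs were haemoglobin, thinned erythroid cell-like cells kept few UMIs of other genes, and no order is read against them. Before thinning the neuron-like shares were below the erythroid ones, so they are not read as expression. CDK1, the kinase that starts mitosis, was found in 29.4% and 35.3% of thinned dividing cell-like cells and 2.43% and 3.78% of radial glia-like cells. It was found in 0.490% and 0.508% of neuron-like and 0.519% and 0% of erythroid cell-like cells. Before thinning its neuron-like shares of 0.975% and 0.726% were below the erythroid ones of 2.39% and 1.69%, so they are not read as expression either. BUB3, a checkpoint protein, was found in 51.3% and 50.8% of dividing cell-like cells but also in 31.9% and 33.2% of neuron-like cells. Its radial glia-like shares of 25.7% and 24.4% lay below the neuron-like ones after thinning. Before thinning they were 45.4% and 42.4%, above the neuron-like 42.0% and 41.4%, so no order is read between these for BUB3. In thinned erythroid cell-like cells the BUB3 shares were 2.60% and 3.90%.

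The first comparison asked which members were higher in dividing cell-like cells than in the mean of the 6 neuron-like classes. UMI sums per class and embryo were tested with edgeR's quasi-likelihood test, with the embryo as a block and Benjamini-Hochberg adjustment over 10065 genes. All 48 members tested were higher at an adjusted p under 0.05, where 28.9% of all genes tested were higher and 21.6% were lower. CENPM was too sparse to be tested. The median log2 fold change was 5.39 over the members tested and 0.12 over all genes. In 42 of the 48, every dividing cell-like value exceeded every neuron-like value of either embryo, a pattern seen in 12.4% of all genes. The other 6 were AURKAIP1, CENPH, CENPV, CENPA, CENPW and CENPX.

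For 13 members, 1 neuron-like class or more held no UMI in either embryo, and their fitted folds depend on the prior count. Folds are therefore also given as the level in dividing cell-like cells over that in all neuron-like cells together, and by this measure the median log2 ratio was 5.07. Without the shallow class of 180 cells, which was tried once the data had been seen, the fitted median was 5.30. Scaling by library totals in place of TMM moved the median of all genes by -0.18, and 2219 genes were then higher and 2840 lower, against 2913 and 2171 with TMM.

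Among inner kinetochore proteins, 10 of 10 tested were higher with log2 fold changes from 0.24 to 5.76. CENPC, which links centromeric nucleosomes to the outer kinetochore, stood at 295 and 306 CPM in dividing cell-like cells and 114 and 108 CPM in neuron-like cells together. Its log2 fold change was 1.89 ± 0.07 (SE, edgeR quasi-likelihood adjusted p = 7.95e-50). CENPI, a subunit of the same platform, stood at 81.9 and 87.6 CPM against 12.9 and 13.1 CPM, a log2 fold change of 2.87 ± 0.12. For both genes the groups did not overlap. CENPL rose further, from 3.36 and 2.33 CPM to 71.0 and 75.8 CPM, or 21.1-fold and 32.5-fold in the 2 embryos. CENPN, CENPP, CENPT, CENPW and CENPA, the centromeric histone, had log2 fold changes of 5.03, 3.70, 4.80, 4.36 and 4.38, and CENPX one of 2.03 ± 0.48. CENPN and CENPX were among the genes with a neuron-like class at 0, and their log2 ratios over all neuron-like cells together were only 3.82 and 0.81. CENPX was at 5.79 and 10.2 CPM in dividing cell-like cells, and the first of these lay below its 9.84 CPM in cortical excitatory neuron-like cells of embryo 2. CENPM was counted at 2.89 and 3.15 CPM in dividing cell-like cells, with 3 and 1 UMIs in all neuron-like cells.

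CENPH, a further inner kinetochore subunit, was nearly flat. It stood at 192 and 212 CPM in dividing cell-like cells, 189 and 199 CPM in neuron-like cells together, 163 and 179 CPM in radial glia-like cells and 219 and 221 CPM in choroid plexus-like cells. The groups overlapped. Its log2 fold change of 0.24 ± 0.06 (edgeR quasi-likelihood adjusted p = 0.000682) shrank to 0.04 (adjusted p = 0.690) with library totals in place of TMM. In the annotation the CENPH model is numbered next to the main CCNB1 model on the same chromosome, and whether these models overlap was not tested.

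All 6 outer kinetochore and corona genes were higher, with log2 fold changes from 4.38 to 6.13. CENPF, a large corona protein, stood at 3792 and 3460 CPM in dividing cell-like cells and 90.4 and 60.6 CPM in neuron-like cells together, which is 41.9-fold and 57.1-fold. CENPE, the kinesin that carries chromosomes to the metaphase plate, stood at 988 and 903 CPM against 20.4 and 16.3 CPM. SPC25, of the NDC80 complex, stood at 490 and 611 CPM against 11.2 and 7.41 CPM. No neuron-like class of either embryo reached the dividing cell-like values of these genes. NDC80 and NUF2, which make the microtubule-binding head of that complex, had log2 fold changes of 5.97 ± 0.11 and 4.38 ± 0.10. SPC24, the partner of SPC25, was sparse, at 7.58 and 11.2 CPM in dividing cell-like cells with 4 and 2 UMIs in all neuron-like cells.

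The 4 spindle checkpoint genes were higher, and they split into 3 with log2 fold changes between 5.30 and 5.66 and BUB3 with 1.21 ± 0.06. BUB1B, which as part of the mitotic checkpoint complex inhibits the anaphase-promoting complex (APC/C), stood at 307 and 294 CPM against 8.44 and 6.65 CPM. TTK, the kinase that starts the checkpoint signal, stood at 294 and 285 CPM against 9.26 and 6.01 CPM. BUB1 was at 192 and 172 CPM in dividing cell-like cells, with a log2 fold change of 5.66 ± 0.13. BUB3, the adaptor that brings BUB1 and BUB1B to the kinetochore, stood at 406 and 360 CPM against 193 and 199 CPM, or 2.10-fold and 1.81-fold. The BUB3 groups did not overlap, and radial glia-like cells held 169 and 143 CPM.

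All 5 mitotic cyclin and CDK1 names were higher. CCNB2 stood at 681 and 736 CPM in dividing cell-like cells and 13.6 and 8.52 CPM in neuron-like cells together. CCNA2, the cyclin of S phase and G2, stood at 354 and 320 CPM against 6.72 and 4.32 CPM. Its fitted log2 fold change of 7.19 ± 0.14 was the largest of all members, but it fell to 6.11 without the shallow neuron-like class, where CCNA2 had no UMI. CCNB1 was at 418 and 366 CPM against 45.9 and 31.6 CPM, 9.12-fold and 11.6-fold. Among these genes CCNB1 had the smallest fold, and CDK1 one of 6.10 ± 0.14 on the log2 scale. CCNB3, a B-type cyclin of low level here, was at 20.7 and 15.3 CPM with a log2 fold change of 5.18 ± 0.32. The name CCNB1 covers 12 gene models, of which 1 held 94.7% of its UMIs and a second 4.36%. CENPP had 88.3% and 11.7% of its UMIs on 2 models.

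All 6 mitotic kinases and chromosomal passenger genes were higher, with log2 fold changes from 2.99 to 6.56. AURKB, the kinase of the chromosomal passenger complex, stood at 531 and 556 CPM against 10.7 and 5.19 CPM, which is 49.8-fold and 107-fold. NEK2, a centrosome kinase, was at 126 and 120 CPM against 3.11 and 2.57 CPM. PLK4, which starts centriole duplication, was at 191 and 182 CPM against 32.0 and 23.5 CPM, and its log2 fold change of 2.99 ± 0.10 was the smallest of the group. AURKA, PLK1 and BIRC5 (survivin, a subunit of the passenger complex) had fitted log2 fold changes of 5.95, 5.74 and 5.17, each with a neuron-like class at 0, and level ratios of 4.92, 4.82 and 4.48 on the same scale.

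Of the 7 spindle assembly genes, all were higher, and 5 had log2 fold changes between 5.49 and 5.94. TPX2, which nucleates spindle microtubules and activates AURKA, stood at 1701 and 1459 CPM against 52.2 and 38.7 CPM. NUSAP1, which bundles microtubules, stood at 1371 and 1067 CPM against 27.9 and 15.7 CPM. ASPM, which acts at the spindle poles, stood at 1215 and 1132 CPM against 36.3 and 31.0 CPM. These 3 were far above every neuron-like class, as were DLGAP5 and PRC1 with log2 fold changes of 5.85 ± 0.07 and 5.72 ± 0.10. HMMR was at 659 and 624 CPM against 63.7 and 67.3 CPM, a log2 fold change of 3.51 ± 0.05. CENPJ, the centriole protein that shares its prefix with the kinetochore genes, was at 127 and 150 CPM against 56.6 and 70.5 CPM, with the smallest change of the group (1.43 ± 0.11).

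The other groups were higher too. TOP2A, which untangles sister chromatids, stood at 5164 and 4243 CPM against 110 and 68.4 CPM, and MKI67 at 3115 and 3142 CPM against 61.8 and 47.2 CPM. UBE2C, the ubiquitin-conjugating enzyme of the APC/C, stood at 1856 and 2088 CPM against 55.7 and 41.2 CPM, and UBE2T, an enzyme of the Fanconi anaemia pathway, at 82.4 and 111 CPM against 2.70 and 1.52 CPM. ECT2, which switches on RhoA for cytokinesis, had a log2 fold change of 5.18 ± 0.13, and ANLN, the scaffold of the contractile ring, one of 6.58 ± 0.27 with 6 and 15 UMIs in all neuron-like cells. DEPDC1 had one of 5.12 ± 0.13.

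Further kept names were caught by their first letters and stood on no list of roles. AURKAIP1, an AURKA-interacting protein that is also a subunit of the mitochondrial ribosome, stood at 180 and 193 CPM in dividing cell-like cells and 191 and 183 CPM in neuron-like cells together, and the groups overlapped. Its call (log2 fold change 0.18 ± 0.06, edgeR quasi-likelihood adjusted p = 0.00970) turned to -0.025 (adjusted p = 0.812) with library totals. CENPV stood at 377 and 554 CPM against 299 and 420 CPM, above every neuron-like class within each embryo but overlapping across embryos. CENPS-CORT, a read-through name that joins a small histone-fold protein of the kinetochore with the neuropeptide cortistatin, stood at 150 and 151 CPM against 8.11 and 4.67 CPM.

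**Figure D2:**
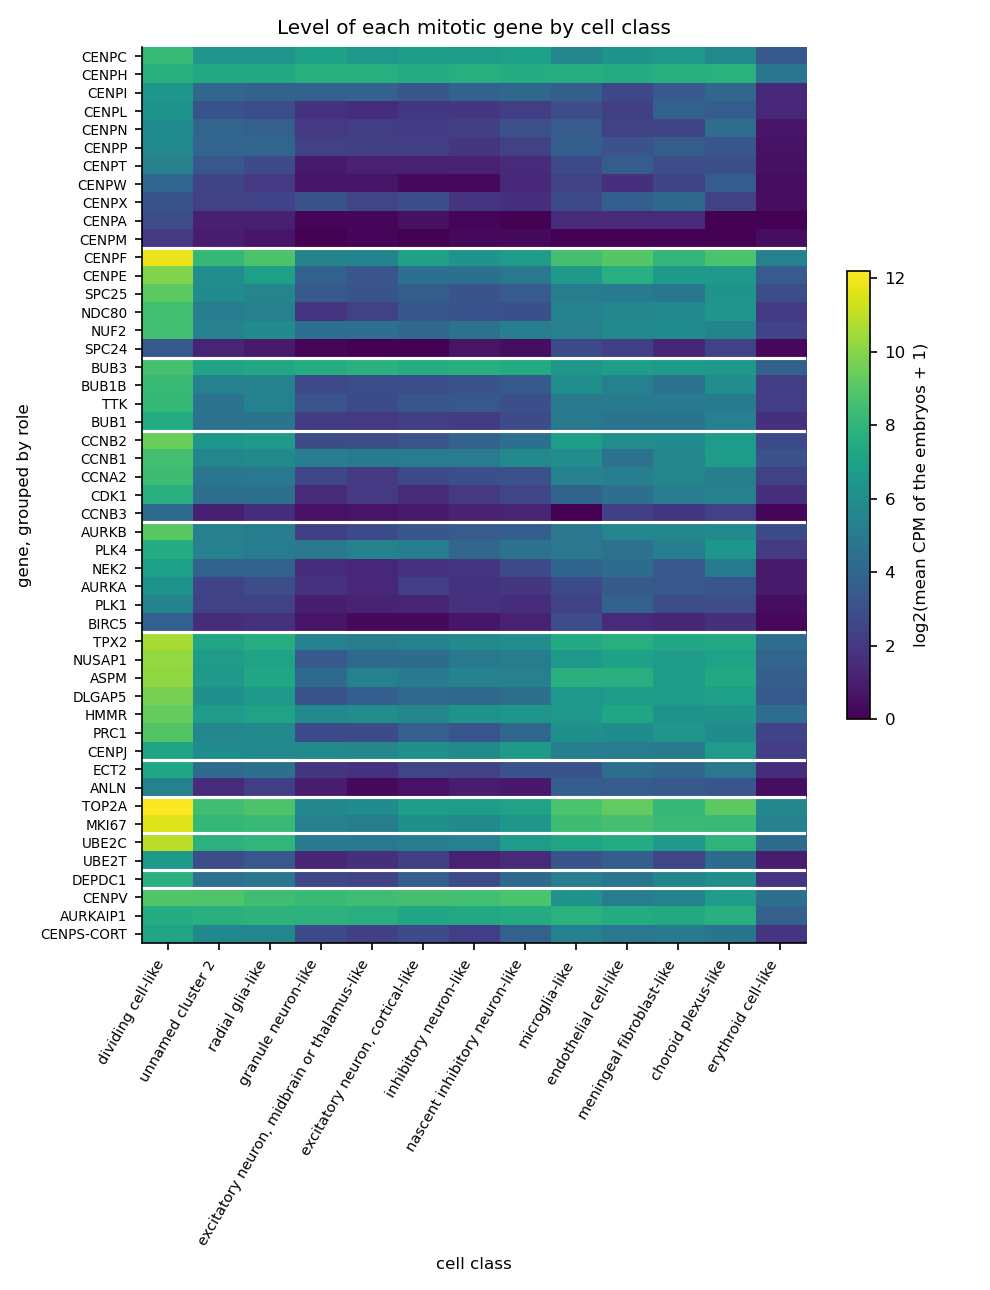
Level of each of the 49 genes in 13 cell classes, as log2 of the mean CPM of the embryos plus 1, with genes grouped by role (white lines) and ordered by level in dividing cell-like cells. Most rows are brightest in the dividing cell-like column, whereas CENPH, CENPV and AURKAIP1 are nearly even across the neural classes. BUB3 is only 2.10-fold and 1.81-fold higher in dividing cell-like than in neuron-like cells. The shallow neuron-like class of 180 cells and unnamed cluster 12 are not drawn.

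The second comparison set dividing cell-like against radial glia-like cells, most of which stood in cluster 5 with its 3 markers. It is not read as dividing against non-dividing cells. Among radial glia-like cells 17.4% were G2/M-marked and 17.6% S-marked. The marks are not read as phases, and 12.8% of midbrain or thalamus excitatory neuron-like cells were G2/M-marked too. How many radial glia-like cells divide was not tested. Of the 48 members tested, 47 were higher at an adjusted p under 0.05 (edgeR quasi-likelihood test) against 13.9% of all genes, and 1 was lower against 14.8% of all genes. The median log2 fold change was 2.90 over the members and -0.06 over all genes. In 46 of the 48 every dividing cell-like value exceeded every radial glia-like value, against 25.6% of all genes.

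AURKB differed most, at 531 and 556 CPM against 27.9 and 42.2 CPM in radial glia-like cells, a log2 fold change of 3.93 ± 0.15 (edgeR quasi-likelihood adjusted p = 3.57e-47). CCNA2 stood at 354 and 320 CPM against 27.1 and 29.3 CPM, 3.56 ± 0.14 on the log2 scale, and SPC25 at 490 and 611 CPM against 37.7 and 54.8 CPM, 3.55 ± 0.14. In all 3, both embryos showed the difference, at 19.0-fold and 13.2-fold for AURKB. The medians of the groups for the outer kinetochore, the mitotic kinases, the spindle and the chromosome marks were 3.15, 3.23, 3.04 and 3.36. Single members spread more widely, from 2.38 to 3.93 among the mitotic kinases and from 1.41 to 3.23 in the spindle group. The checkpoint group had a median of 2.83 (1.30 to 2.85) and the inner kinetochore group one of 2.25 (0.23 to 3.44). CENPF, TPX2, TOP2A, MKI67 and UBE2C had log2 fold changes of 3.02 ± 0.08, 3.04 ± 0.06, 3.38 ± 0.10, 3.35 ± 0.08 and 2.90 ± 0.08.

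The members with the smallest rise were CENPH (0.23 ± 0.07, edgeR quasi-likelihood adjusted p = 0.00543), CENPV (0.42 ± 0.06) and CENPX (0.82 ± 0.29). The calls of CENPH and CENPX did not pass the test under 6 and 7 of the alternatives, with log2 fold changes of 0.12 to 0.29 and 0.20 to 0.83, and that of CENPV did not with no replicate block (0.42, edgeR quasi-likelihood adjusted p = 0.187). BUB3 rose by 1.30 ± 0.07, CENPJ by 1.41 ± 0.13, CENPS-CORT by 1.67 ± 0.13 and CENPC by 1.86 ± 0.08 on the log2 scale. CENPS-CORT stood at 50.6 and 44.0 CPM in radial glia-like cells. AURKAIP1 was lower, at 180 and 193 CPM against 245 and 230 CPM (-0.35 ± 0.06, adjusted p = 3.17e-06), without overlap. This call did not hold when the clusters were drawn otherwise: it turned to 0.43 at a resolution of 1.0, 0.23 with 30 principal components, 0.33 without the cells of highest doublet score, 0.35 with the other cell cycle lists kept in the clustering and 0.26 with no gene left out.

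**Figure D3:**
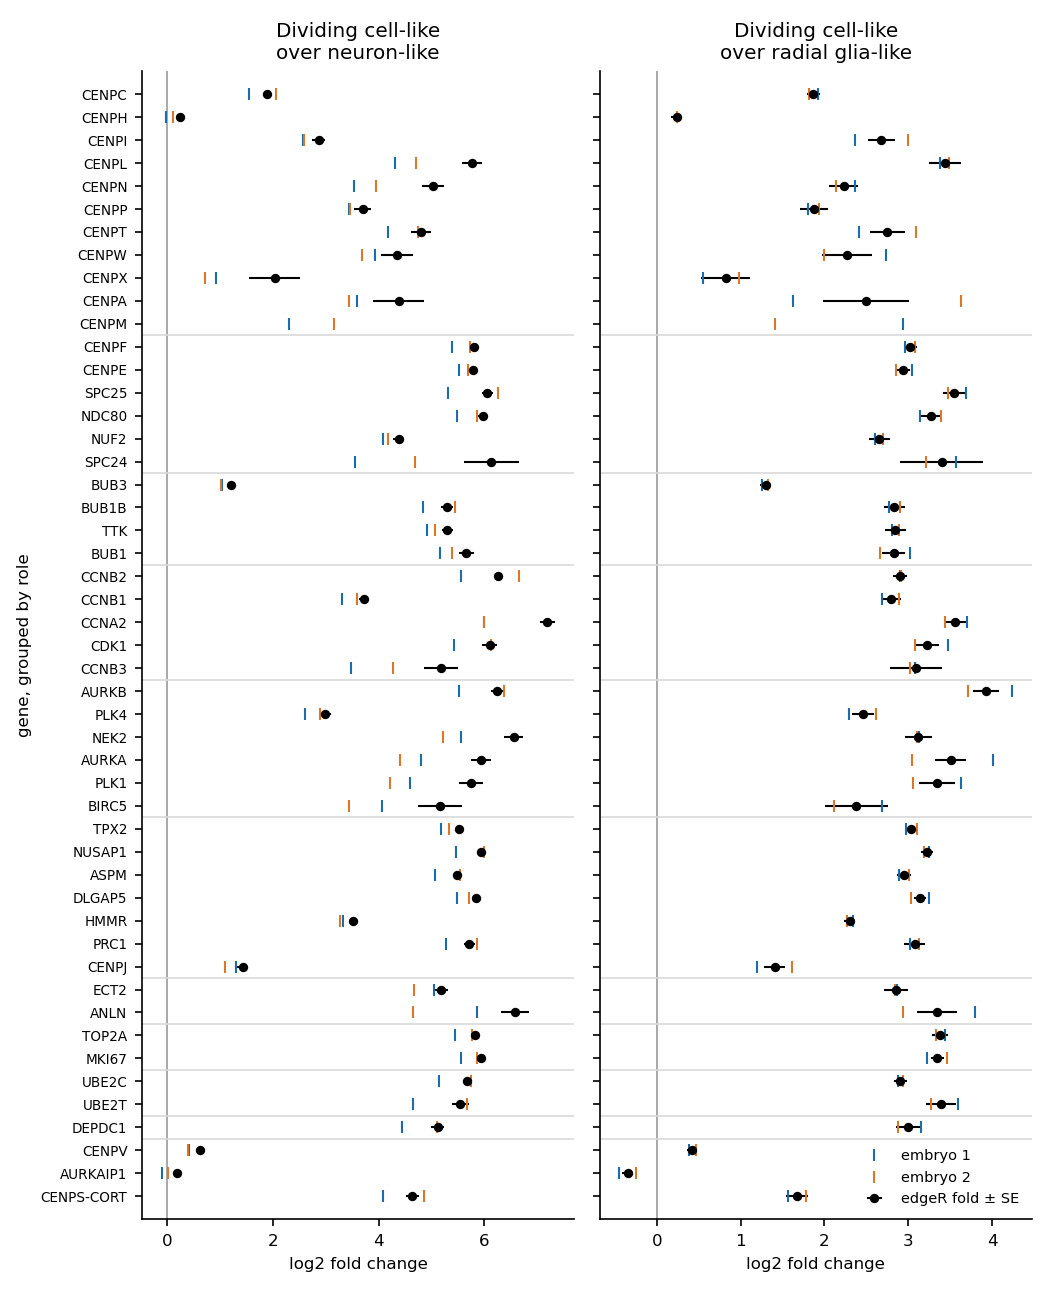
Log2 fold change of each gene in dividing cell-like cells over the 6 neuron-like classes (left) and over radial glia-like cells (right), grouped by role. Points and bars are the edgeR estimate ± SE, and ticks are the log2 ratios within each embryo on library totals, with 0.5 UMI added to each sum; on the left the estimates run from 0.18 (AURKAIP1) to 7.19 (CCNA2) and stand above both ticks for genes with a neuron-like class at 0, on the right AURKAIP1 alone is below 0 and CENPM has ticks only.

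The third comparison asked whether radial glia-like cells held more of these transcripts than neurons. Of 48 members tested, 42 were higher (28.8% of all genes were) and the other 6 did not pass the test, where 18.1% of all genes were lower. The median log2 fold change was 2.44 over the members and 0.18 over all genes. With library totals 2137 of all genes were higher and 2527 lower, against 2900 and 1819 with TMM. In 30 members every radial glia-like value exceeded every neuron-like value, against 10.9% of all genes.

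CCNA2, NEK2 and CCNB2 had the largest fitted differences, of 3.63 ± 0.29, 3.44 ± 0.37 and 3.35 ± 0.13 on the log2 scale. CCNA2 and NEK2 had no UMI in the shallow neuron-like class, and the 3 are not ranked. CCNB2 stood at 90.7 and 97.7 CPM in radial glia-like cells and 13.6 and 8.52 CPM in neuron-like cells together, and CCNA2 at 27.1 and 29.3 CPM against 6.72 and 4.32 CPM. NEK2 was at 14.2 and 13.8 CPM against 3.11 and 2.57 CPM. All 3 were higher in radial glia-like cells of both embryos. The 6 members not called by edgeR were BUB3 (-0.09 ± 0.08, adjusted p = 0.357), CENPC (0.03 ± 0.12, adjusted p = 0.914), CENPH (0.01 ± 0.07, adjusted p = 0.960), CENPI (0.19 ± 0.22, adjusted p = 0.518), CENPJ (0.03 ± 0.14, adjusted p = 0.930) and CENPX (1.21 ± 0.84, adjusted p = 0.242). All 6 were called higher in dividing cell-like cells in both comparisons above, where the calls of CENPH and of CENPX depended on the alternatives given there. With library totals CENPH was lower in radial glia-like cells (-0.20, edgeR adjusted p = 0.0168). Without the shallow neuron-like class CENPC was lower there (-0.28, edgeR adjusted p = 0.000972). BUB3 passed the test as lower in radial glia-like cells under 7 of the alternatives, with log2 fold changes of -0.60 to -0.18. The count of members higher in radial glia-like cells fell to 20 when the cell cycle lists were kept in the clustering and also to 20 when no gene was left out. Under at least 1 alternative 9 members called higher turned to lower values, among them AURKB, CCNB1, PLK1 and PLK4.

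Other genes of the cell cycle were taken from lists. Of 70 other mitotic genes, 49 were tested and 49 were higher in dividing cell-like than in neuron-like cells, with a median log2 fold change of 5.33. NCAPD2, a condensin subunit, had a change of only 0.74, and NCAPG2, of the other condensin, one of 0.70. Against radial glia-like cells 48 of the 49 were higher, with a median of 2.92, and NCAPD2 was not (-0.08, edgeR quasi-likelihood adjusted p = 0.613). Of 51 DNA replication genes, 40 were tested and 39 were higher than in neurons (median 3.23), all but CCNE1. 13 of these 40 stood on the list of markers from which the class was named, and of the other 27, 26 were higher. Against radial glia-like cells 33 were higher and 1, E2F1, was lower (-0.97), with a median of 1.10. MCM3, a subunit of the replicative helicase, had a log2 fold change of 0.23 there that did not pass the test. Of 16 APC/C subunits and activators, 14 were tested. Of these 8 were higher than in neurons (median 0.48) and 4 higher than in radial glia-like cells, FZR1 with 1.29, ANAPC1 with 1.16, CDC27 with 0.93 and CDC23 with 0.68. Among all genes tested, 28.9% were higher than in neurons (median 0.12) and 13.9% higher than in radial glia-like cells (median -0.06).

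How the members differ between cells with more UMIs of replication genes and cells with more of mitotic genes was then described. The marks were set by genes that are not members. A cell was called G2/M-marked with at least 5 UMIs of the other mitotic genes and at least 2 times as many as of the replication genes, and S-marked the other way round. By this definition, members that vary with the mitotic list are high in G2/M-marked and low in S-marked cells. The ratios are therefore not read as timing in the cell cycle. A cell with at least 5 UMIs of the lists together and neither mark was called doubly marked. As first defined the marks failed, because the model named NCAPD2 gave 39.1% and 46.6% of the UMIs of the mitotic list and was counted at 1925 and 2139 CPM in neuron-like cells. With it, 68.1% of all cells were G2/M-marked and only 22 and 15 cells were S-marked, so the planned test was not run. NCAPD2 was left out after this was seen, and what follows is a description without a test. It left 1770 and 1567 G2/M-marked and 712 and 638 S-marked cells, with median depths of 4335 and 4393 UMIs, and 3970 cells had 4 to 6 UMIs of either list, near the limit. A further 1654 and 1862 cells were doubly marked. Of the G2/M-marked cells 52.5% were dividing cell-like, of the S-marked cells 4.59% and of the doubly marked cells 14.0%. Differences between marks thus cannot be told apart from differences between cell classes. Neuron-like classes held G2/M-marked cells too, from 1.11% of the shallow class to 12.8% of midbrain or thalamus excitatory neuron-like cells. The mitotic list still held genes with small log2 fold changes over neuron-like cells, such as NCAPG2 (0.70), ZWINT (1.57) and LMNB1 (1.63). Whether a mark in a neuron-like cell stands for its phase was not tested. Inhibitory neuron-like cells, the largest class, had 8.85%. The S-marked cells stood largely in unnamed cluster 2, where 35.2% of cells were S-marked and 14.2% G2/M-marked, and among radial glia-like cells (17.6% and 17.4%).

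The members summed to 23402 and 21279 CPM in G2/M-marked cells and 2096 and 2091 CPM in S-marked cells. In 46 of 49 the values of G2/M-marked cells lay above those of S-marked cells without overlap, as did 26.5% of all 10351 genes compared, and in 1 they lay below, as did 19.6%. The median log2 ratio was 3.99 over the members and 0.02 over all genes. ANLN was at 35.3 and 30.8 CPM in G2/M-marked cells with 0 and 1 UMIs in S-marked cells. NEK2 stood at 108 and 102 CPM against 2.58 and 0.329 CPM, CCNB2 at 584 and 614 CPM against 6.6 and 7.24 CPM, and UBE2C at 1620 and 1765 CPM against 25.6 and 32.6 CPM. These 4 were all far higher in G2/M-marked cells of both embryos. AURKB, AURKA, DLGAP5 and CENPE had log2 ratios between 5.48 and 5.78.

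In the middle of the order stood CCNA2 (4.80), CCNB1 (4.45), MKI67 (3.99), CDK1 (3.55) and NDC80 (3.34). MKI67 was at 2423 and 2276 CPM in G2/M-marked and 172 and 126 CPM in S-marked cells. At the low end PLK4 was at 152 and 126 CPM against 42.8 and 43.8 CPM, CENPC at 251 and 250 CPM against 83.0 and 73.7 CPM and BUB3 at 355 and 320 CPM against 131 and 145 CPM. CENPP and CENPS-CORT each had a log2 ratio of 0.99, CENPJ one of 0.70 and CENPH one of 0.35. For all of these the G2/M-marked values were higher without overlap. CENPX (4.15 and 7.03 CPM against 4.02 and 7.90 CPM) and CENPV (325 and 444 CPM against 364 and 514 CPM) overlapped, and AURKAIP1 was lower in G2/M-marked cells (174 and 182 CPM against 211 and 234 CPM). Of the 11 inner kinetochore genes, 10 had ratios under the members' median, up to CENPL with 3.26. The exception was CENPA, with 1 and 0 UMIs in S-marked cells.

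**Figure D4:**
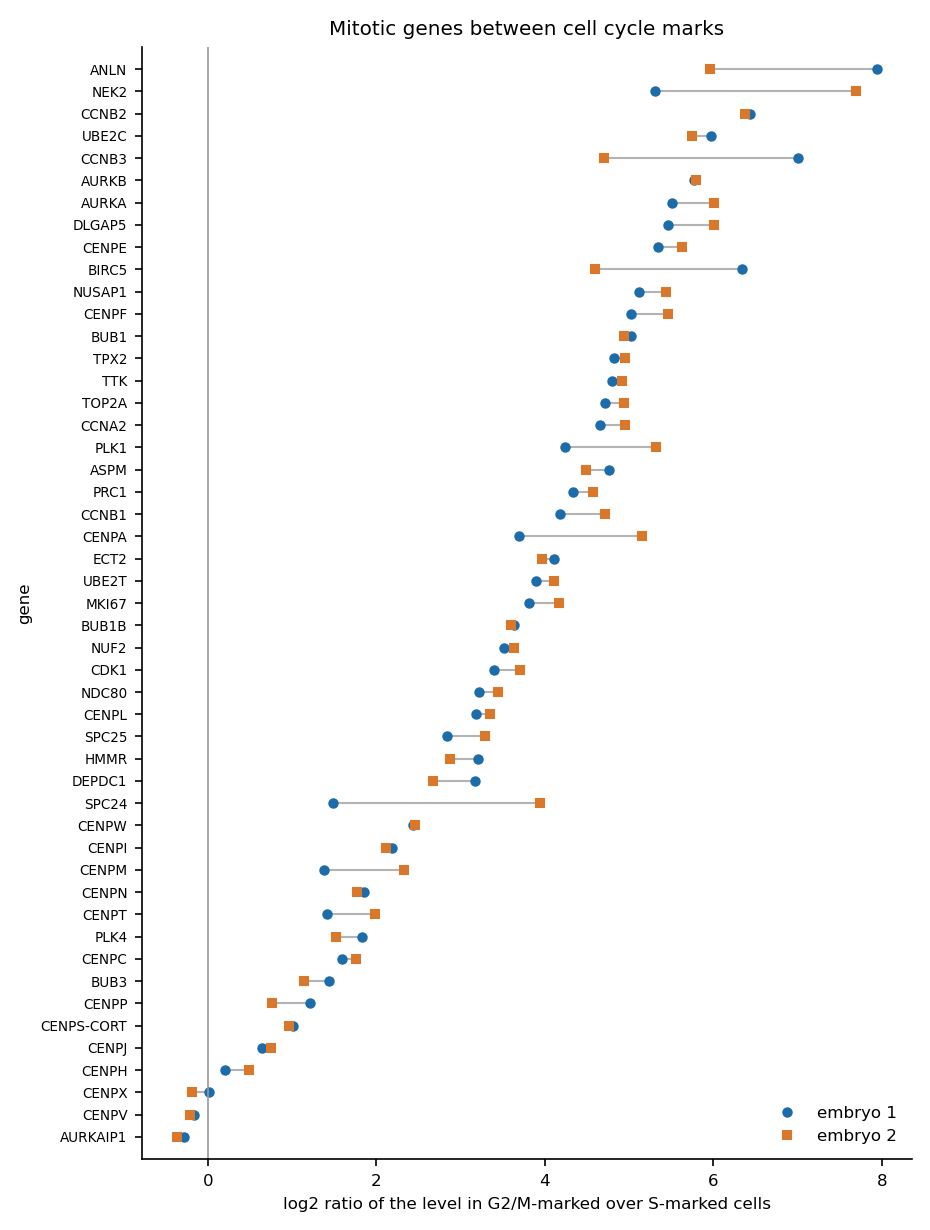
Log2 ratio of each gene's level in G2/M-marked over S-marked cells, with 0.5 UMI added to each sum, in embryo 1 (circles) and embryo 2 (squares), ordered by their mean. Mean values run from -0.32 for AURKAIP1 up to 6.40 for CCNB2, above which stand only NEK2 and ANLN with 0 or 1 UMI in S-marked cells of an embryo. Genes with few UMIs in S-marked cells, such as ANLN, NEK2, CCNB3 and SPC24, have the widest gaps between embryos.

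Within the dividing cell-like class, the members summed to 27754 and 26885 CPM in cluster 4 (1625 cells) and 30035 and 26843 CPM in cluster 9 (679 cells), and these values overlapped. Single members differed both ways, but the share of all genes that did so was not computed. These differences are therefore not read as a trait of the members. ASPM, AURKB, BUB1B, CCNA2, CENPE, CENPF, CENPM, CENPS-CORT, TTK and UBE2C were higher in cluster 9 without overlap, and CENPC, CENPN, ECT2, NDC80, NUF2, PLK4, PRC1 and SPC24 were lower without overlap, as a description of clusters drawn from the same cells. CENPE was at 1056 and 1006 CPM in cluster 9 against 956 and 856 CPM, and PRC1 at 445 and 429 CPM against 497 and 495 CPM. CENPV and CENPJ had lower values there in each embryo, CENPV at 330 and 468 CPM against 399 and 593 CPM and CENPJ at 107 and 141 CPM against 137 and 154 CPM. Across embryos the CENPV and CENPJ values of the clusters overlapped. The CENPM values rest on only 11 and 13 UMIs in cluster 4 and 10 and 7 UMIs in cluster 9.

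The embryos were compared by exact 95% Poisson intervals of the level in dividing cell-like cells, which cover counting error only and are no test between animals. The intervals overlapped for 29 members, embryo 1 was higher for 11 and embryo 2 for 9. The share of all genes with intervals apart was not computed, and intervals are narrower for genes with more UMIs. These counts are therefore not read as a trait of the members. Among the 20 whose intervals were apart, CENPX differed most, at 5.79 (4.17 to 7.82) and 10.2 (7.91 to 13.1) CPM. CENPV was at 377 (363 to 391) and 554 (535 to 572) CPM, and it was higher in embryo 2 in all 6 neuron-like classes as well. On the other side AURKA was at 89.4 (82.7 to 96.6) and 63.2 (57.2 to 69.7) CPM, and NUSAP1 at 1371 (1344 to 1398) and 1067 (1042 to 1093) CPM. TOP2A, TPX2, DLGAP5, CCNB1, BUB3, CCNA2, CENPF, CENPE and ASPM were also higher in embryo 1, with log2 ratios of embryo 2 over embryo 1 between -0.28 and -0.10, and UBE2T, CDK1, SPC25, CENPP, CENPJ, UBE2C and CCNB2 in embryo 2. The intervals of MKI67 overlapped, at 3115 and 3142 CPM.

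**Figure D5:**
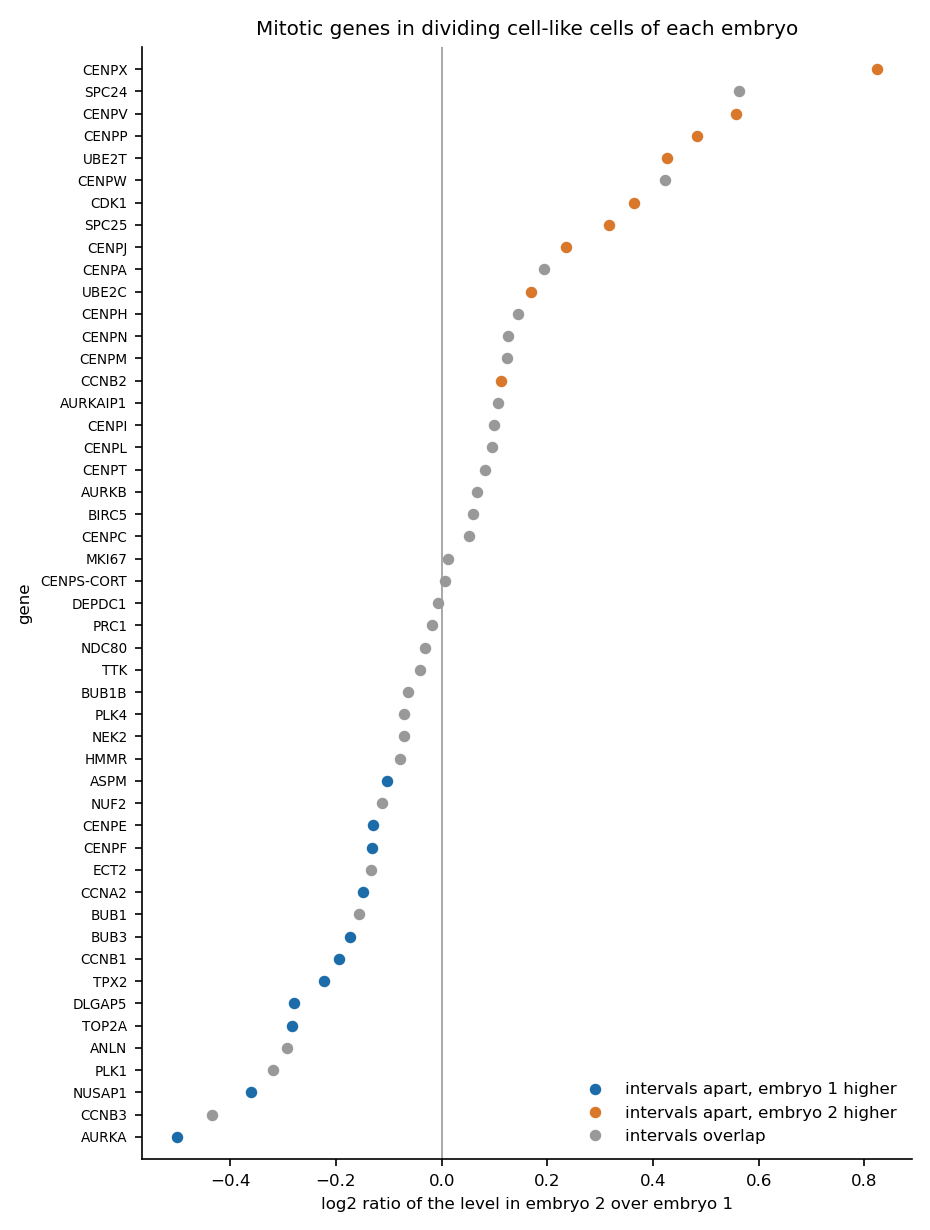
Log2 ratio of each gene's level in dividing cell-like cells of embryo 2 over embryo 1, ordered by the ratio. Colours mark genes whose exact 95% Poisson intervals are apart (11 higher in embryo 1, 9 higher in embryo 2) and grey those whose intervals overlap (29).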

How the data were processed

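The authors ran fastp and Cell Ranger 3.1.0 against the tree shrew TS_2.0 assembly, per the methods of the study and the processing notes in the labels, and deposited for each embryo raw UMI counts per gene model and called barcode, without normalization. Counts of models of 1 name were summed. Cells with at least 200 genes were scaled to 10000 UMIs and clustered without the members, other cell cycle lists and histone names (2000 variable genes, 20 components, 20 neighbours, leidenalg 0.10.2 at resolution 0.5, scanpy 1.11.5, Python 3.11.15). A marker counted for a cluster if 10% or more of the cells held it and its level was 2 times or more that of all other cells. The type with most such markers, 3 or more, gave the name, and a tie gave none. Scrublet called 1 and 0 cells, so doublets were kept.

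For each class, the UMIs of an embryo were summed, and the sums entered 1 edgeR fit (version 4.0.16, R 4.3.3; TMM, filterByExpr, quasi-likelihood, embryo as a block, 13 classes, Benjamini-Hochberg threshold 0.05). The embryo is a block because the classes compared come from the same animals. The biological coefficient of variation was 0.0638. Tested on simulated data with 200 genes changed 4-fold, the procedure recovered 78.0%, 88.5% and 74.0% of them in the comparisons with neurons, with radial glia and between these (8501, 8536 and 8743 genes, with 3.70%, 3.28% and 8.07% of calls false). The simulation gave all classes 1 mean profile and no embryo effect, unlike the data, so these rates may not carry over. Intervals and shares cover counting error only. At the depth of the cells kept, 38192755 and 35785697 UMIs, 3 counts are 0.0785 and 0.0838 CPM.

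Members, gene lists and markers were chosen with earlier results of these data known. Genes given in full were, in each role group, up to 3 members of highest level in dividing cell-like cells, every member not called or lower in the first comparison, every member lower in G2/M-marked cells, and the 3 largest and 3 smallest changes of each comparison, and the other members are accounted for more briefly. The genes shown between the dividing clusters, between embryos and by share of cells, and those of other lists, were chosen after their values were seen. The planned edgeR test between G2/M-marked and S-marked cells was not run, for the reason given with the marks. No coordinates or sequences are given, since no genome or sequence of the TS_2.0 build was used here. Alternatives were RLE scaling, library totals, no filter, DESeq2 1.42.0, no block, single gene models, other clusterings and left-out cells.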

Additional observations from a re-analysis of the deposited data

Results flagged for a closer look

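The barcodes with under 200 genes, which no comparison uses, still held transcripts of the mitotic genes. In embryo 1 the summed level in 833 such barcodes was 214 CPM (785 UMIs), above the 0.816 CPM that a count of 0 allows, against 7051 CPM in the cells kept. In embryo 2 it was 106 CPM (243 UMIs) in 358 barcodes, above a limit of 1.31 CPM, against 6556 CPM in the cells kept.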

How the results depend on the processing

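Members called higher in dividing cell-like than in neuron-like cells numbered 45 to 49 under all 14 alternatives run, and against radial glia-like cells 44 to 48 under 12. For radial glia-like over neuron-like cells the count was 35 to 42, except that it fell to 20 with only the members left out of the clustering and to 20 with no gene left out. Over all 10065 genes, 2913, 1396 and 2900 were higher in the 3 comparisons of the main fit. These were 2877, 1482 and 2822 with RLE scaling and 2219, 1395 and 2137 with library totals. Such counts are not given for the other alternatives. Cells with at least 1000 genes gave no radial glia-like class, so those comparisons were not run. With no replicate block the counts were 46, 44 and 40, and the block, which stands for the embryo, rests on the classes coming from the same animals. The summed level in dividing cell-like cells (27684 CPM) moved to 26530 with at least 1000 genes, 22110 at resolution 1.0, 19811 with only members left out, 20278 with no gene left out, 29548 without the highest Scrublet scores and 29409 as a mean over cells. Leaving out 1 embryo gave 26872 to 28496 CPM. Median log2 ratios were then 4.60 to 4.72, 2.91 to 2.93 and 1.61 to 1.82 for the 3 comparisons, as values with no test. These are ratios on library totals with 0.5 UMI added, over all 49 members. They are a different measure from the fitted medians of 5.39, 2.90 and 2.44, so the gap from those is not read as an effect of leaving out an embryo. AURKAIP1 reversed to -0.025 against neurons with library totals, and against radial glia to 0.43 (resolution 1.0), 0.23 (30 components), 0.35 (only members left out), 0.26 (no gene left out) and 0.33 (Scrublet). Against radial glia-like cells the calls of CENPX, CENPH and CENPV were lost under 7, 6 and 1 alternatives (0.20 to 0.83, 0.12 to 0.29 and 0.42), and against neurons that of CENPH under 3 (0.04 to 0.25) and that of AURKAIP1 with no replicate block (0.18). In radial glia-like over neuron-like cells, 13 members reversed in 39 of 572 values. Of these, 9 were called higher, and their lowest values were -0.18 (AURKAIP1), -0.29 (AURKB), -0.57 (CCNB1), -3.66 (CCNB3), -0.64 (CENPV), -4.43 (PLK1), -0.76 (PLK4), -1.28 (SPC24) and -0.020 (UBE2T). The other 4 were not called. With only members left out, CENPH, CENPC, CENPJ and CENPI had -0.0099, -0.47, -0.28 and -0.53. With no gene left out, CENPC, CENPJ and CENPI had -0.50, -0.31 and -0.17. Without the highest Scrublet scores CENPH, CENPC and CENPJ had -0.0040, -0.33 and -0.35. With library totals CENPH, CENPC, CENPJ and CENPI had -0.20, -0.18, -0.18 and -0.014. Without the shallow neuron-like class CENPH, CENPC and CENPJ had -0.023, -0.28 and -0.13. CENPC had -0.027 at resolution 1.0, CENPH -0.016 with RLE, and with DESeq2 CENPH had -0.016 and CENPC -0.0013. BUB3, not called in the main fit, passed the test as lower in radial glia-like cells under 7 alternatives (-0.60 to -0.18). The cause was not tested. Library totals and the contrast without the shallow class were chosen after seeing the data. Between marks, 46 members were higher without overlap under 5 of the 6 other settings and 45 of 48 with cells thinned to 2000 UMIs. Over all genes compared, 2290 of 7746 were higher without overlap in thinned cells. With limits of 3 and 10 UMIs for a mark these were 2394 of 10917 and 2987 of 9605. They were 2695 of 10262 with at least 1000 genes, 2720 of 10048 without the highest Scrublet scores and 2721 of 10309 without cells rich in haemoglobin.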
